A study of Mus musculus with 10 samples.

Results

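The genes described here are Ttr, Folr1, Kl, Clic6, Otx2, Lmx1a and Msx1, which are expressed in the choroid plexus or in the cortical hem at the medial edge of the dorsal telencephalon. They were taken as a named list, by gene symbol, and are 7 of the 43629 gene identifiers in the count tables. RNA-seq was performed on the dorsal telencephalon, from which the cerebral cortex forms, of C57BL/6 mouse embryos at E14.5, with 5 control and 5 Dot1l-cKO samples. Controls carried no Cre and 1 floxed allele of Dot1l (Dot1l-cKO f/+). The Dot1l-cKO embryos carried 1 Cre allele and were homozygous for the floxed allele (Dot1l-cKO f/f). All 10 samples therefore had at least 1 floxed Dot1l allele. Cre was present only in the Dot1l-cKO group, so loss of Dot1l and any effect of the Cre allele itself cannot be told apart between these groups. The reach of Cre activity into the hem and the choroid plexus was not measured here.

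The cortical hem is a signalling centre that borders the future hippocampus and secretes WNT and BMP proteins, which pattern the adjoining cortex. Beside it, the dorsal midline forms the choroid plexus, an epithelium that grows into the ventricle, secretes cerebrospinal fluid and carries hormones, folate and ions between blood and fluid. Both tissues are attached to the cortex at its medial edge, so a dissected dorsal telencephalon can hold more or less of them. In bulk RNA, fewer cells of a type and less RNA per cell cannot be told apart.

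Total counts ranged from 54202349 to 66556034 per sample. The deposited normalised tables label their columns with a leading number, called the header number here, whose meaning is not given in the sources used here. Header number 57 belonged to replicates 2 and 3 of both groups, in which the mitochondrial rRNA genes held 0.0471% to 0.492% of the counts, against 5.79% to 10.9% in the other 6 samples. Dot1l, the targeted gene, which encodes a histone H3 lysine methyltransferase, averaged 37.3 ± 4.04 CPM (counts per 1e+06 of normalised library size) in controls and 39.4 ± 11.7 in Dot1l-cKO samples (SD, n = 5 each). Its log2 fold change of Dot1l-cKO against control was 0.08 (SE 0.20, edgeR adjusted p = 0.864). The tables hold counts per gene, so loss of the floxed stretch alone was not measured. The labelled tissue was checked by 10 transcription factor genes of the dorsal telencephalon, and each was detected in every sample. Among them, Lhx2 ranged from 111 to 327 CPM.

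The hem and choroid plexus genes varied widely among samples of the same genotype, and for each of the 7 the group means differed by less than the control SD. All 7 reached their highest control level in control replicate 3 and their highest Dot1l-cKO level in Dot1l-cKO replicate 5. Ttr had the largest spread among controls of all 17039 genes tested. None of the 7 passed the edgeR test for genotype at an adjusted p of 0.05, and none had an unadjusted p under that value. Over all genes tested, 7.11% were called, 5.67% as increased and 1.44% as decreased in Dot1l-cKO. The levels of the groups overlapped for all 7, while 8.34% of all genes had no overlap. DESeq2 also called 0 of the 7 and found 0 at an unadjusted p under the threshold. The log2 fold change was positive for 2 and negative for 5, with a median of -0.43 beside -0.01 over all genes tested.

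**Figure D1:**
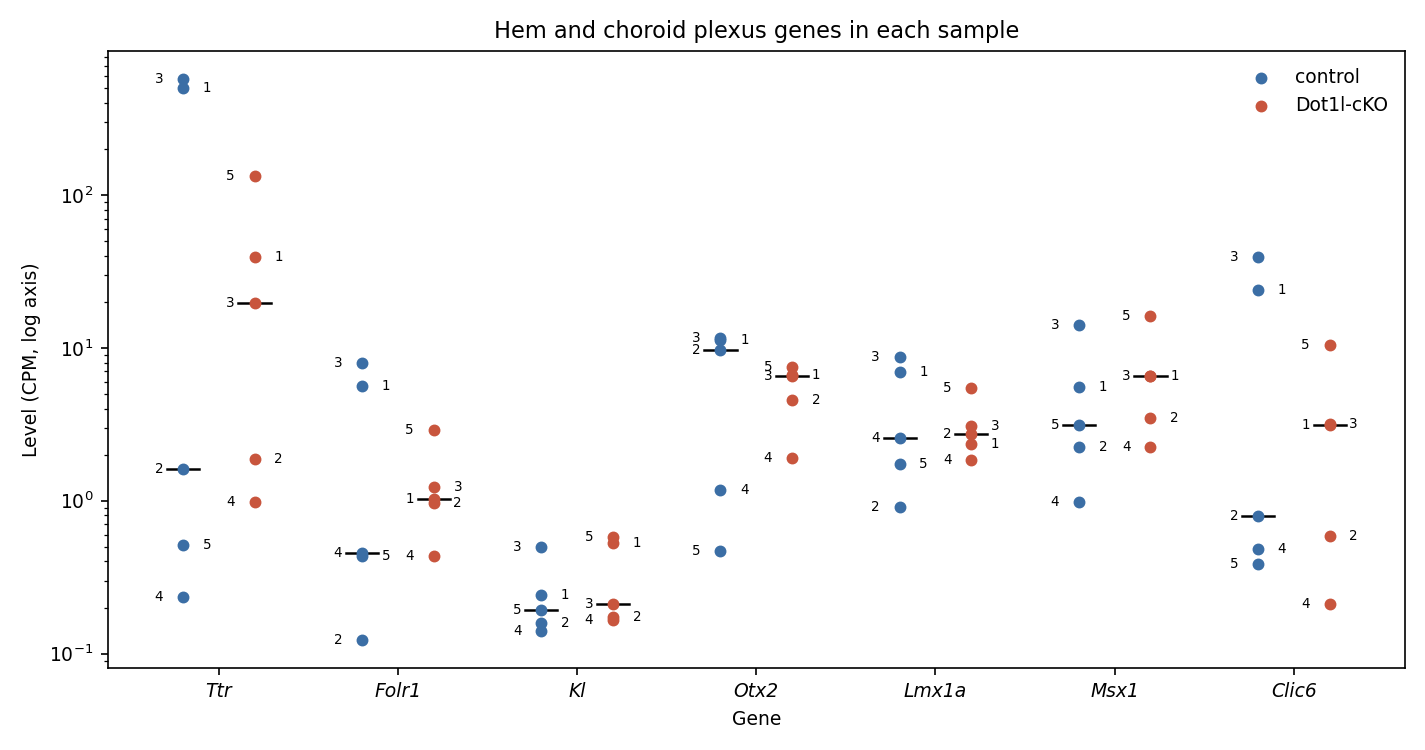
Level of each gene in each sample in CPM on a log axis, with the replicate number beside each point and a bar at the group median (n = 5 each). Control replicates 1 and 3 and Dot1l-cKO replicate 5 stand highest for Ttr and Clic6, and the groups overlap for every gene.

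Ttr encodes transthyretin, a carrier of thyroid hormone and retinol-binding protein that choroid plexus epithelium secretes in large amounts. The gene (ENSMUSG00000061808) spans bases 20665280 to 20674321 of chromosome 18 in GRCm38, plus strand. Ttr levels were 498, 1.61, 575, 0.234 and 0.516 CPM in control replicates 1 to 5. The corresponding Dot1l-cKO levels were 39.2, 1.87, 19.7, 0.98 and 132 CPM. Control replicates 1 and 3 were high, the other 3 controls lay at or under 1.61 CPM, and the Dot1l-cKO samples were spread between these extremes. The group means of 215 ± 294 and 38.8 ± 54.4 CPM (SD, n = 5 each) and the group medians of 1.61 and 19.7 CPM ranked the genotypes in opposite order. The fitted log2 fold change was -2.47 (SE 1.83, 95% CI -6.48 to 1.54, edgeR adjusted p = 0.502).

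The direction for Ttr was not the same in every fit. With the deposited normalised counts on a log2(value + 1) scale in limma, the log2 fold change was 0.30 (limma adjusted p = 0.956). Without control replicate 3 the edgeR value was -1.69, and without Dot1l-cKO replicate 5 it was -3.80. With the replicate number as a block it was -1.03 (edgeR adjusted p = 0.791). Within the samples of header number 57 the value was -4.72, and within the others it was -1.50, and neither passed the threshold.

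The library with the highest Ttr level differed from the one with the lowest by 2460-fold among controls and by 135-fold among Dot1l-cKO samples. Ttr counts ran from 15 to 38380, and the 95% exact Poisson interval of the lowest level was 0.131 to 0.385 CPM, so counting error covers little of this range. By counts, Ttr was gene number 215 in control replicate 1 and 16040 in control replicate 4, and it held 0.0594% of all counts in control replicate 3. Control replicates 1 and 3 together held 99.8% of the Ttr signal summed over controls. Dot1l-cKO replicate 5 held 68.1% of the Ttr signal summed over Dot1l-cKO samples.

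Clic6, which encodes a chloride intracellular channel family protein of the plexus epithelium, followed the same samples. It is annotated on chromosome 16 from 92485736 to 92541243, plus strand (ENSMUSG00000022949), and shares part of that stretch and strand with 2410124H12Rik, which had 42 counts over all samples against 4954 for Clic6. In the controls it was counted at 23.9, 0.789, 39.1, 0.483 and 0.387 CPM, in replicate order. Dot1l-cKO samples had 3.13, 0.59, 3.19, 0.211 and 10.5 CPM. The high controls were again replicates 1 and 3, which held 97.4% of the summed control level of Clic6, and the lowest of all 10 samples was Dot1l-cKO replicate 4. The means of 12.9 ± 17.8 and 3.53 ± 4.15 CPM (SD, n = 5 each) gave a log2 fold change of -1.87 (SE 1.31, 95% CI -4.75 to 1.00, edgeR adjusted p = 0.474). That difference was -0.85 without control replicate 3 and -2.87 without Dot1l-cKO replicate 5.

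Folr1 encodes folate receptor alpha, through which the choroid plexus moves folate into the fluid. The gene lies on chromosome 7 from 101858331 to 101870788, minus strand (ENSMUSG00000001827), and overlaps Anapc15 on the other strand, while counting was strand-specific. Control replicates 1 to 5 had 5.61, 0.123, 8.01, 0.452 and 0.436 CPM. Among Dot1l-cKO samples the levels were 1.02, 0.971, 1.23, 0.437 and 2.9 CPM. Folr1 thus showed the 2 high controls of Ttr, while 4 of the 5 Dot1l-cKO samples lay between 0.437 and 1.23 CPM. The log2 fold change was -1.16 (SE 0.95, 95% CI -3.23 to 0.92, edgeR adjusted p = 0.548). It was -0.32 without control replicate 3 and 0.04 in the limma fit, where it also had no call.

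Kl encodes klotho, a membrane protein that serves as co-receptor for the hormone FGF23 and is made by the mature choroid plexus. It is annotated on chromosome 5 from 150952607 to 150993817, plus strand (ENSMUSG00000058488). Its levels in controls were 0.241, 0.158, 0.494, 0.14 and 0.194 CPM, from 9 to 33 counts. The Dot1l-cKO replicates had 0.528, 0.173, 0.21, 0.166 and 0.58 CPM, from 10 to 36 counts. Kl was high in Dot1l-cKO replicates 1 and 5 and in control replicate 3, and the other 7 samples lay within 0.14 to 0.241 CPM. At this depth those 7 could not be ranked, since the exact Poisson interval was 0.0641 to 0.266 CPM for the lowest of them. The log2 fold change was 0.42 (SE 0.47, 95% CI -0.62 to 1.45, edgeR adjusted p = 0.676). Within the 4 samples of header number 57 it was -0.76, and within the others it was 1.14, neither of them called.

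Otx2, Lmx1a and Msx1 encode homeodomain transcription factors. Otx2 is required for choroid plexus development and stays on in its epithelium, Lmx1a is active in the roof plate and the cortical hem, and Msx1 is a BMP-responsive gene of the dorsal midline that is also expressed in mesenchyme. Among the 7 genes, 4 had an entry in the RefSeq promoter table (GRCm38), which were Kl, Lmx1a, Msx1 and Otx2, the last with 4 starts. The 200 bases from 250 to 51 bases before the outermost RefSeq start are printed for the 3 transcription factor genes, to show how their start regions differ. Sequences run 5′ to 3′ on the strand of the gene, and capitals mark matches to TAATTA, the core read by LIM homeodomain proteins such as LMX1A, and to CAATTA, the core read by MSX proteins.
Otx2: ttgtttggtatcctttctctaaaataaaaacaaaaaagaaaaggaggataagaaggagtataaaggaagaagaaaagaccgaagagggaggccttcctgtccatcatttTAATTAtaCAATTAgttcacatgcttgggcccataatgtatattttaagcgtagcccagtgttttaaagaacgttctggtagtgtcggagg
Lmx1a: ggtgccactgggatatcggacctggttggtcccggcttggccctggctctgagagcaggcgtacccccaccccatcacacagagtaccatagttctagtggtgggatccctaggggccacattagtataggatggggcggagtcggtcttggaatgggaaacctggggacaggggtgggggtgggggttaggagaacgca
Msx1: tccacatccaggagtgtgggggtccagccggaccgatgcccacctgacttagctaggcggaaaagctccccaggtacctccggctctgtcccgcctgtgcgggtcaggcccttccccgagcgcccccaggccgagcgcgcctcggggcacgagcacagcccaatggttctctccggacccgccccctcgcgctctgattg
The Otx2 stretch (chr14:48667695-48667894, minus strand) had 37% G and C and 4 CG dinucleotides. The Lmx1a stretch (chr1:167689308-167689507, plus strand) had 61% and 6, and the Msx1 stretch (chr5:37824636-37824835, minus strand) had 69.5% and 17. The stretches of Otx2 and Lmx1a lie inside the gene as annotated, downstream of a farther start, and that of Msx1 lies upstream of its annotated gene.

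In the Otx2 stretch TAATTA stood 141 to 136 bases and CAATTA 133 to 128 bases before the start, with no overlap. Another Otx2 start, at 48665109, had 3 further TAATTA matches and a TAATCC, the core read by OTX proteins, and the start at 48662734 had CAATTA. The fourth Otx2 start and the promoters of Lmx1a, Msx1 and Kl had none of the 4 motifs searched, the last of which was CTTTGAA, read by TCF/LEF factors. Over all 32851 promoters of 300 bases, searched on both strands, 5.29% held TAATTA, 8% CAATTA, 7.06% TAATCC and 5.14% CTTTGAA. A match describes these letters and does not show a binding site.

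Otx2 (ENSMUSG00000021848, chromosome 14 from 48657677 to 48673819, minus strand), which overlaps Otx2os1 on the other strand, did not follow Ttr in every sample. In controls it was counted at 11.3, 9.67, 11.6, 1.18 and 0.468 CPM, in replicate order. The Dot1l-cKO levels were 6.62, 4.54, 6.5, 1.89 and 7.44 CPM. Here 3 controls were above and 2 were below every Dot1l-cKO sample. Control replicate 2 had a high Otx2 level beside the low Ttr and Clic6 levels given above. The log2 fold change of Otx2 was -0.34 (SE 0.72, 95% CI -1.91 to 1.23, edgeR adjusted p = 0.838). Its sign was reversed with the replicate block, at 0.11 (edgeR adjusted p = 0.938), and in the samples outside header number 57, at 0.32. Within header number 57 it was -0.92 (SE 0.23, edgeR adjusted p = 0.206), the lowest adjusted p that any of the 7 genes reached under the alternatives run. In that fit Otx2 had an unadjusted edgeR p under 0.05, which none of the 7 genes had in any other fit.

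Lmx1a (ENSMUSG00000026686, chromosome 1 from 167689237 to 167848741, plus strand) had levels of 6.92, 0.912, 8.65, 2.58 and 1.74 CPM in the control replicates. Dot1l-cKO replicates had 2.36, 2.72, 3.08, 1.85 and 5.43 CPM. Control replicates 1 and 3 were the highest of the 10 samples and control replicate 2 the lowest, while Dot1l-cKO samples differed by 2.93-fold at most. The means of 4.16 ± 3.41 and 3.09 ± 1.38 CPM (SD, n = 5 each) gave a difference of -0.43 (SE 0.55, 95% CI -1.63 to 0.77, edgeR adjusted p = 0.718) on the log2 scale, and without control replicate 3 it was 0.03.

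Msx1 (ENSMUSG00000048450, chromosome 5 from 37820485 to 37824583, minus strand) was counted at 5.55, 2.26, 14.1, 0.981 and 3.13 CPM in controls. It was counted at 6.57, 3.49, 6.55, 2.25 and 16.1 CPM in Dot1l-cKO samples. Control replicate 3 and Dot1l-cKO replicate 5 were the high samples, and control replicate 1 was within the range of the rest. The log2 fold change was 0.42 (SE 0.68, 95% CI -1.06 to 1.91, edgeR adjusted p = 0.779). Without Dot1l-cKO replicate 5 it was -0.15, and without control replicate 3 it was 1.23. Within header number 57 Msx1 differed by -0.69, and within the other samples by 1.39, with no call in either.

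Per kilobase of exon, mean levels over the 10 samples put Ttr first at 107 CPM per kb. Clic6 followed at 2.1, Msx1 at 1.97, Otx2 at 1.45, Lmx1a at 1.07, Folr1 at 0.922 and Kl at 0.0309 CPM per kb. By the control median the order was different, with Otx2 at 2.29, Ttr at 1.36, Msx1 at 1.01, Lmx1a at 0.761, Clic6 at 0.202, Folr1 at 0.197 and Kl at 0.0208 CPM per kb. Kl had the lowest level per kilobase of the 7 genes within each of the 10 samples. The ranges over samples of neighbours among the other 6 genes overlapped in either order.

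The spread was set against all 17039 genes tested by the SD of log2 CPM within each group, for which the median gene had 0.21 in both groups. In controls the SD was 5.42 for Ttr, the largest of all genes, 3.19 for Clic6 (rank 4), 2.48 for Folr1 (rank 13) and 2.13 for Otx2 (rank 41). Msx1 at 1.42 and Lmx1a at 1.34 ranked 178 and 214, and Kl at 0.64 ranked 1349. All 7 therefore lay above the median gene among controls. The Dot1l-cKO samples gave smaller SDs for 6 of the 7 genes, with 2.96 for Ttr (rank 9), 2.15 for Clic6 (rank 40), 1.07 for Msx1, 0.94 for Folr1, 0.80 for Otx2 and 0.57 for Lmx1a. The exception was Kl at 0.80. Whether the spread differs between the genotypes was not tested.

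**Figure D2:**
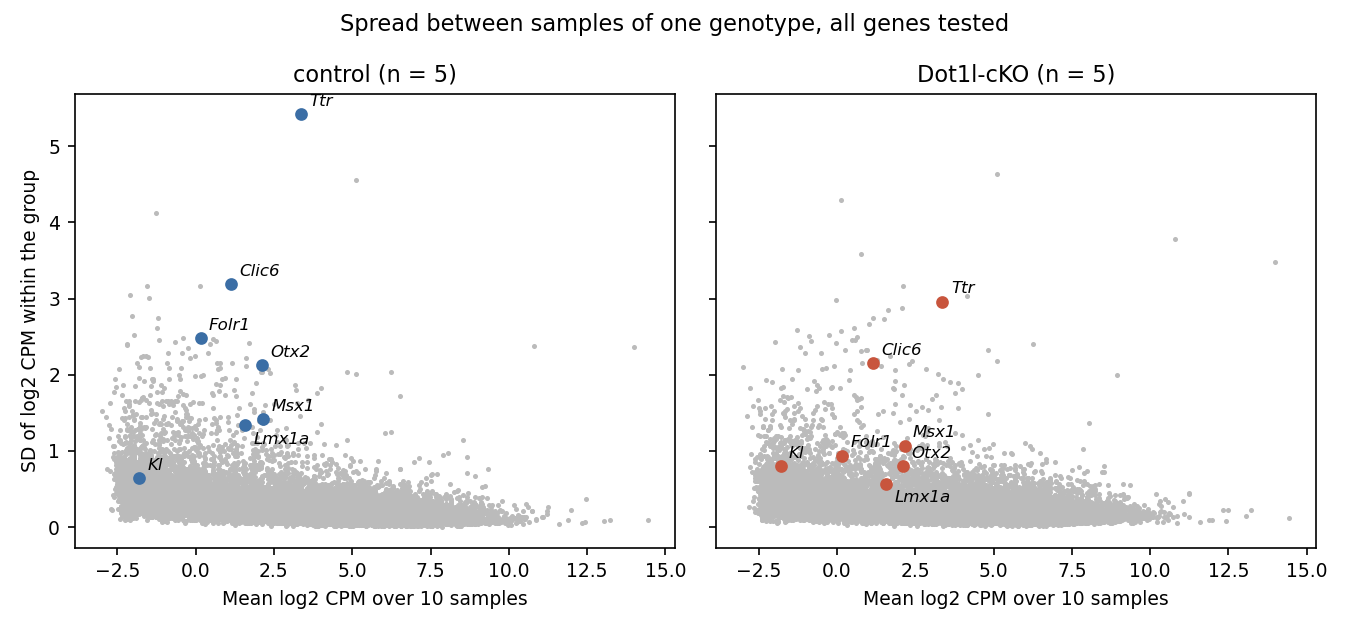
SD of log2 CPM within each group (n = 5) against the mean log2 CPM over the 10 samples, with 1 grey point for each of the 17039 genes tested and the 7 genes coloured. Ttr is the topmost point among controls at 5.42, and it lies at 2.96 among Dot1l-cKO samples.

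The 7 genes shared much of their sample-to-sample pattern. After the group mean was subtracted, log2 CPM of Ttr correlated over the 10 samples at r = 0.99 with Clic6 (Spearman rho 0.93), 0.90 with Msx1 (0.92) and 0.89 with Folr1 (0.82). The values were 0.82 with Lmx1a (0.72), 0.79 with Kl (0.78) and 0.78 with Otx2 (0.92). Folr1 was most like Lmx1a, at 0.98, and the lowest value of any pair was 0.45, for Otx2 and Lmx1a. Without the 2 samples farthest from their group mean of Ttr, r was 0.97 for Clic6, 0.90 for Msx1, 0.81 for Kl, 0.74 for Folr1, 0.66 for Otx2 and 0.60 for Lmx1a. These values describe 10 libraries, and within each library all genes share its depth and dissection. No p-value is given for these correlations.

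Counts set against Ttr within a library differed by gene. For every 100 Ttr counts, Clic6 had 4.81 and 6.81 counts in control replicates 1 and 3, and 7.99, 16.2 and 7.97 counts in Dot1l-cKO replicates 1, 3 and 5. Otx2 had 2.27 and 2.01 counts in these controls, and 16.9, 33 and 5.64 counts in these Dot1l-cKO samples. In control replicate 2, where Ttr had 92 counts, Otx2 had 551. Otx2 counts were therefore present where Ttr counts were few.

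Genes outside the lists were named by the highest correlation with Ttr among genes whose log2 CPM averaged 1 or more. They were Cfap54 and Sulf1 at r = 0.97, Wfikkn2, Npnt, Wdr78 and Tmem237 at 0.95, St3gal6 at 0.94 and Arsg at 0.93, over 10 samples. Cfap54 and Wdr78 encode proteins of motile cilia, Tmem237 encodes a protein of the ciliary transition zone, and Sulf1 encodes an enzyme that trims heparan sulfate outside the cell. None of these 8 was called between genotypes, and their log2 fold changes ran from -0.70 for Sulf1 to 0.20 for St3gal6. Of the 50 genes most like Ttr, 7 were among the 19 tested genes of the choroid plexus list described next, 1 was Clic6 and 0 were among the 19 tested hem genes.

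The choroid plexus was examined further with 22 other genes of its epithelium, which cover channels, carriers, junctions and enzymes. Of these, 19 passed the filter on low counts. Of the 19, 1 was called as increased and 0 as decreased, beside 5.67% and 1.44% of all genes tested. The median log2 fold change was -0.12 beside -0.01 over all genes tested. The called gene was Steap1, which encodes a metalloreductase family protein. It ranged from 0.561 to 0.943 CPM in controls and from 1.13 to 1.45 CPM in the cKO group, with no overlap. Its log2 fold change was 0.78 (SE 0.17, edgeR adjusted p = 0.0199). The call was lost without control replicate 4 (0.0516) and without Dot1l-cKO replicate 1 (0.0534), as edgeR adjusted p-values.

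Among the more abundant genes of that list, Cab39l differed by -0.11, Slc29a4, a monoamine transporter gene, by -0.35, Enpp2, the gene of autotaxin, by 0.02 and Car12, a carbonic anhydrase gene, by 0.46 on the log2 scale, none of them called. Genes closest to Ttr in the list are given next, chosen after their values were seen. Kcne2, a potassium channel subunit gene of the apical membrane, had 14.4, 0.105, 16.3, 0.0156 and 0.0645 CPM in control replicates and 0.566, 0, 0.385, 0.0151 and 2.4 CPM in Dot1l-cKO replicates. It followed Ttr at r = 0.99 and had a log2 fold change of -3.19 (SE 1.63, edgeR adjusted p = 0.303). Calml4 followed at 0.99, Kcnj13 and Cldn2 at 0.98 and Aqp1, the water channel gene of the plexus, at 0.97. Other genes of the list followed Ttr less closely, among them Steap1 at 0.62, Cab39l at 0.56, Wfdc2 at 0.42 and Slc29a4 at 0.25. Of the 22 genes, 19 were highest among controls in control replicate 3, and 14 were highest among Dot1l-cKO samples in Dot1l-cKO replicate 5. Their summed level was 140, 78.2, 178, 72.2 and 77.1 CPM over control replicates and 101, 70.4, 86.5, 80.3 and 126 CPM over Dot1l-cKO replicates, so the ranges overlapped. Cab39l and Slc29a4 averaged 27.5 and 28.6 CPM in controls, so much of the lower sums came from genes that followed Ttr less closely.

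**Figure D3:**
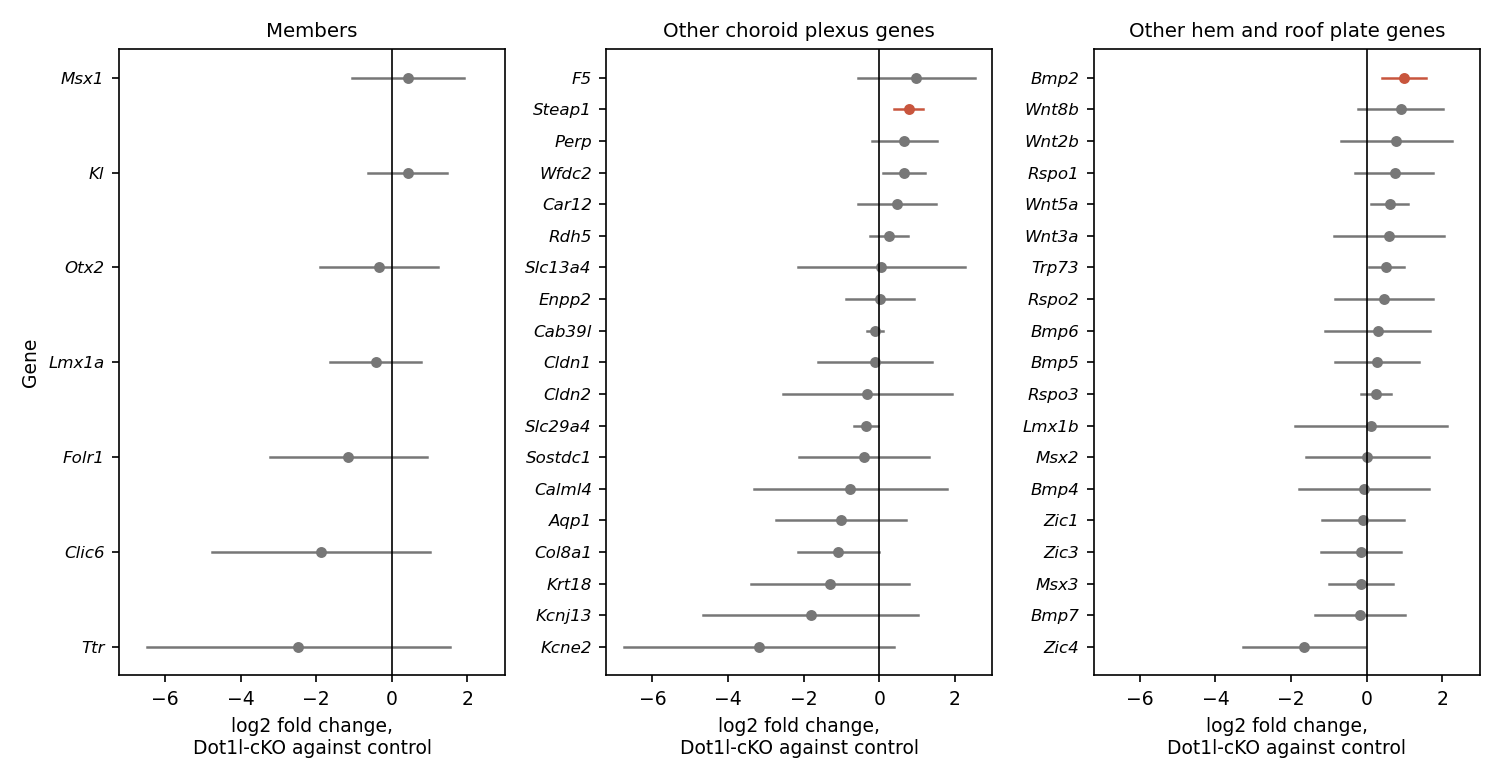
Log2 fold change of Dot1l-cKO against control with its 95% confidence interval (edgeR, 5 against 5 samples) for the 7 genes, the 19 tested choroid plexus genes and the 19 tested hem and roof plate genes. Red marks genes called at an adjusted p under 0.05, which are Steap1 and Bmp2, and the intervals of all 7 genes in the left panel cross 0.

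The hem and roof plate were examined with 20 other genes, mainly of WNT, BMP and R-spondin ligands and of dorsal midline transcription factors. Of the 19 that passed the filter, 1 was called as increased and 0 as decreased, beside 5.67% and 1.44% of all genes tested. Their median log2 fold change was 0.28. Bmp2, a BMP ligand gene, was the one called, with 0.649 to 1.66 CPM in controls and higher levels, 1.89 to 3.71 CPM, in Dot1l-cKO samples. Its log2 fold change was 0.98 (SE 0.26, edgeR adjusted p = 0.0467). With the replicate block its adjusted p was 0.0573, and it kept its call in 1 of the 10 fits that left out a sample. Wnt5a differed by 0.61 (edgeR adjusted p = 0.137), Trp73, a gene of hem-derived Cajal-Retzius cells, by 0.52, Rspo3, a WNT agonist gene, by 0.25 and Zic1 by -0.09, none of them called. Without control replicate 3, which had the highest control level of 15 of the 20 genes, edgeR called 3 of them, Wnt5a at 0.85 (adjusted p = 0.00986), Bmp2 at 1.12 (0.0318) and Wnt8b at 1.57 (0.0396). Wnt8b was chosen after its values were seen.

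The summed hem level was 213, 354, 329, 112 and 123 CPM in control replicates 1 to 5 and 262, 228, 252, 143 and 338 CPM in the Dot1l-cKO samples. Control replicate 2 had the highest sum. In that library Zic1 had 187 CPM and Zic4 62.9 CPM, the highest of the 10 samples, while Wnt3a, a ligand gene made by the hem, had 0.193 CPM and Wnt2b 0.386 CPM, the lowest of the 10. Nkx2-1, a gene of the ventral telencephalon, had 3.61 CPM there and at most 0.339 CPM in every other sample. Zic4, Wnt3a, Wnt2b and Nkx2-1 were chosen after their values were seen. Otx2 thus stood high in a library that held little Ttr, Wnt3a and Wnt2b and much Zic1 and Zic4. Over the 10 samples, Otx2 correlated at 0.89 with the summed hem level and at 0.67 with the summed choroid plexus level, while Ttr gave 0.66 and 0.96. Otx2 also gave 0.89 with the summed multiciliation genes and 0.88 with the summed genes of eye and pigment cells, for which Ttr gave 0.84 and 0.53. Abundant genes weigh most in such sums. Among controls Rfx3 averaged 105 CPM of multiciliation sums of 108 to 152 CPM. Dct averaged 26.3 CPM of eye and pigment sums of 12.2 to 46.5 CPM, and Zic1 80.5 CPM of the hem sums. These correlations therefore describe the sums and do not measure tissues.

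**Figure D4:**
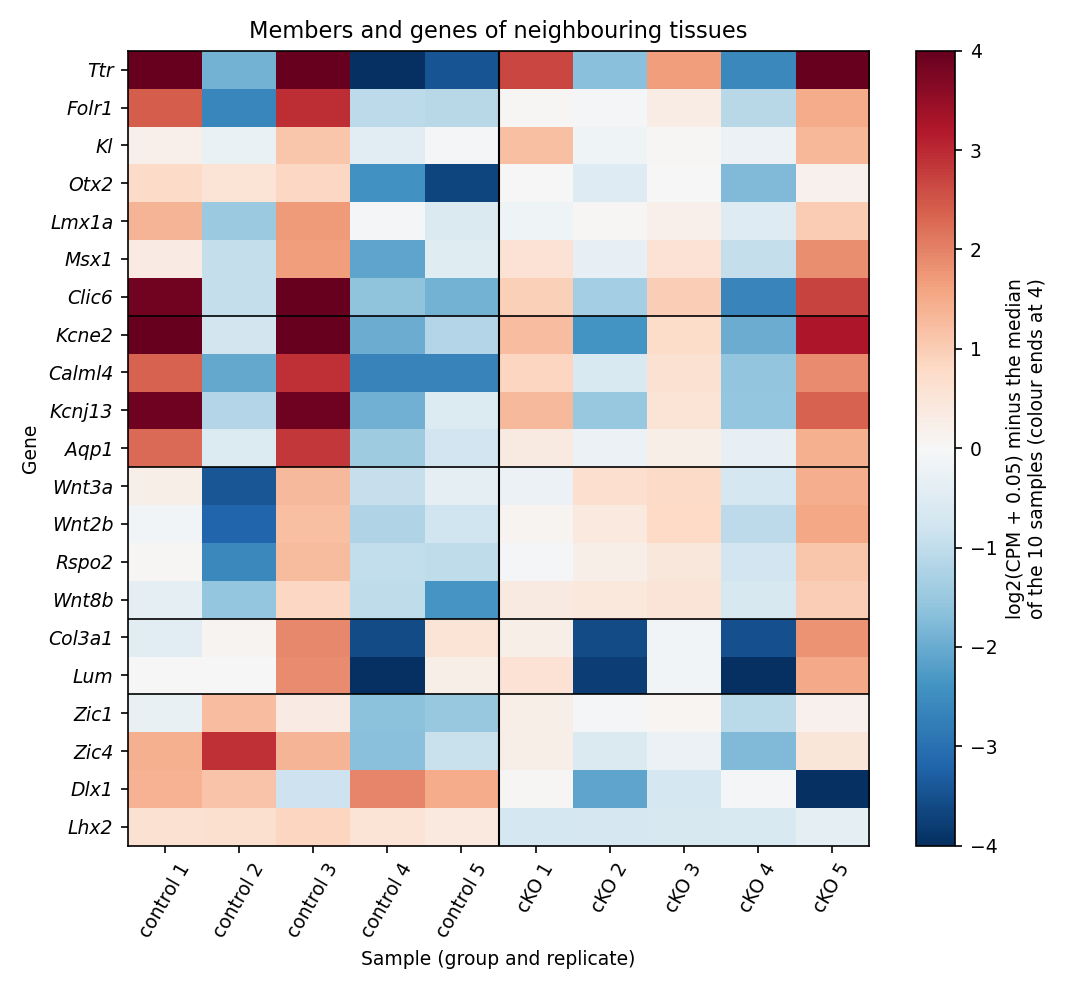
Log2(CPM + 0.05) of each gene in each sample minus its median over the 10 samples, with the 7 genes above the first line and then genes of the choroid plexus, the hem, the meninges and other regions. Control replicates 1 and 3 and Dot1l-cKO replicate 5 are red for Ttr, Clic6 and Kcne2, and control replicate 2 is blue for Wnt3a and Wnt2b and red for Zic4.

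Multiciliation genes were included because choroid plexus cells bear many motile cilia. All 10 were tested and 0 were called, with a median log2 fold change of 0.06. Foxj1, the master regulator of motile cilia, had 12.5 ± 6.03 and 16.9 ± 2.66 CPM in controls and Dot1l-cKO samples (SD, n = 5 each), and Rfx3 had 105 ± 15.4 and 95.4 ± 15.8 CPM. Of 11 genes that work with transthyretin, folate receptor or klotho, 8 were tested and 0 were called. Fgfr1, the FGF receptor that klotho binds, differed by -0.01 on the log2 scale.

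Of 12 paralogs of the 7 genes, 7 were tested, and 2 were called, both as decreased. Over all genes tested, 1.44% were called as decreased. The other 5 tested had no call, with Clic1 at -0.26, Msx3 at -0.15, Msx2 at 0.02, Lmx1b at 0.12 and Folr2 at 0.58 on the log2 scale, named after their values were seen. Otx1, the close relative of Otx2 that is expressed in cortical progenitors, had 15.3 ± 2.07 CPM in controls, against 6.62 ± 1.45 CPM in Dot1l-cKO samples (SD, n = 5 each), with no overlap and a log2 fold change of -1.21 (SE 0.16, edgeR adjusted p = 0.00139). Clic4, a relative of Clic6, differed by -0.30 (SE 0.07, edgeR adjusted p = 0.022), and its levels did not overlap either. The difference between Otx1 and Otx2 in response was not tested. On the cortical side, 4 of 10 patterning genes were called and all 4 were decreased, with Lhx2, which represses hem fate in the cortex, at -1.21 (SE 0.10, edgeR adjusted p = 0.000119) and Nr2e1 at -0.71 (adjusted p = 0.0114). The other 2 were Pax6 at -0.36 (adjusted p = 0.0294) and Dmrt3 at -0.70 (adjusted p = 0.0449), named after their values were seen. Lhx2, Otx1 and Nr2e1 kept their calls in all 10 fits that left out a sample, while Pax6 lost its call in 7, Dmrt3 in 8 and Clic4 in 4.

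Marker lists of other tissues that a dissection could hold were summed in each sample. The 12 genes of meninges and mesenchyme, each detected in every sample, summed to 204, 244, 975, 50 and 377 CPM in control replicates and to 356, 50.8, 250, 58.2 and 900 CPM in Dot1l-cKO replicates. The 2 highest sums were in control replicate 3 and Dot1l-cKO replicate 5, the libraries in which the 7 genes peaked within each group. Control replicate 1, with high Ttr, had a meningeal sum within the range of the rest. Msx1 correlated with this sum at 0.90 and Kl at 0.86 over 10 samples, against 0.70 for Clic6, 0.69 for Ttr, 0.50 for Folr1, 0.43 for Otx2 and 0.42 for Lmx1a. These correlations were not particular to the meninges, since Msx1 gave 0.90 and Kl 0.84 with the summed choroid plexus level, and both gave 0.84 with the summed endothelial level. Between genotypes, 0 of the 12 were called, with Col3a1 at -0.32 and Col1a2 at -0.11. The part of meningeal tissue in the levels of Msx1 and Kl was not tested.

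Endothelial genes summed to 127 to 234 CPM among controls and 116 to 264 CPM among Dot1l-cKO samples, with 0 of 7 called, Kdr at -0.04 and Cldn5 at 0.18. Red blood cell genes summed to 594 to 2531 CPM and 904 to 2226 CPM, with 0 of 8 called, Hbb-bs at 0.14 and Hbb-y at -0.17. Both lists peaked in control replicate 3 and Dot1l-cKO replicate 5.

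Ventral telencephalon genes ran the other way. Their sum was 226, 147, 56.5, 317 and 242 CPM in control replicates and 102, 28.2, 69.2, 95.4 and 17.7 CPM in Dot1l-cKO replicates. The lowest sum of each group was in control replicate 3 and in Dot1l-cKO replicate 5, and Ttr correlated with the sum at -0.47. Of the 9 tested, 1 was called, Lhx6, a gene of migrating interneurons, at -3.00 (SE 0.43, edgeR adjusted p = 0.00187), while Dlx1 differed by -2.07 (adjusted p = 0.115). Over all genes tested, 5.67% were called as increased and 1.44% as decreased. Among 6 tested diencephalic genes, 2 were called as increased, Lhx9 at 0.77 (adjusted p = 0.0111) and Lhx5 at 0.82 (adjusted p = 0.0443), and the sums ran from 33.6 to 66.6 CPM among controls and from 60.1 to 71.5 CPM among Dot1l-cKO samples. The other 4 tested had no call, with Tcf7l2 at -1.15 (adjusted p = 0.112), Irx3 at -0.37, Barhl2 at 0.30 and Lhx1 at 0.47, named after their values were seen. Ttr correlated with the diencephalic sum at 0.84 over 10 samples (Spearman rho 0.93), against 0.69 for the meningeal and 0.66 for the hem sum. Lhx9 made up most of the diencephalic sum, with 21.6 to 40 CPM in controls and 42.4 to 51.4 CPM in Dot1l-cKO samples. By gene, Ttr correlated at 0.86 with Lhx9, 0.84 with Irx3, 0.71 with Tcf7l2, 0.21 with Lhx1, 0.06 with Lhx5 and -0.09 with Barhl2. Among 4 tested genes of eye and pigment cells, Dct was called as decreased at -2.37 (adjusted p = 0.00441) and Tyrp1 as increased at 1.02 (adjusted p = 0.0307), and the sums were 12.2 to 46.5 and 6.38 to 11.7 CPM. Of these calls, Lhx5 was lost in 8 of the 10 fits that left out a sample, and Tyrp1 in 7. In control replicate 1, Gbx2, a thalamic gene named after its values were seen, had 2.03 CPM, and it had at most 0.0877 CPM in every other sample. The part of these tissues in the levels of the 7 genes was not tested.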

How the data were processed

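RNA was extracted from dorsal telencephalon, libraries were made from ribosomal RNA-depleted total RNA with a stranded kit, and paired ends were sequenced. Per the labels and the study's methods, the authors trimmed reads with Trim Galore 0.2.8, mapped them to mm10 with TopHat2 2.0.9 and deposited counts per Ensembl gene from HTSeq 0.6.0 in reverse-stranded mode. The other deposited tables hold the same counts divided by DESeq2 1.6.1 size factors, a normalised signal used only for header numbers and limma. No molecular identifiers were counted, so Poisson intervals cover counting error only.

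Samples were grouped by title. Symbols, positions and exonic lengths came from GENCODE M21 (GRCm38), which matched 42462 identifiers. The rest held 0.268% of counts. Differences were tested with edgeR 4.0.16 (filterByExpr, TMM, quasi-likelihood test, genotype only) in R 4.3.3, with Benjamini-Hochberg adjustment over all genes tested and a threshold of 0.05. CPM are counts per 1e+06 of TMM-normalised library size, log2 CPM have a prior count of 2, and SEs are approximate. The test recovered changed genes in counts simulated gene by gene from its own fitted dispersions, which is no independent check. Whether it could find a change in genes as variable as Ttr was not measured. Every pair of replicates differed by a chi-square per degree of freedom of at least 30.8, so each counted as 1 sample. P-values set the genotype difference against the spread between these samples.

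The 7 genes and all lists were chosen with earlier results of these data known. Named beside them are Dot1l, Lhx2, the called or else most abundant genes of each list (up to 5 for choroid plexus and hem, up to 2 otherwise) and the 8 genes outside the lists most like Ttr. Some items that this rule names are not reported here. Deviations of same-numbered samples from their group means correlated across genes at 0.229, 0.349, 0.145, 0.597 and 0.131. Samples with different numbers ran from -0.534 to 0.446. Control replicate 3 was closer to Dot1l-cKO replicate 5 (0.446), and control replicate 5 to Dot1l-cKO replicate 4 (0.294), than to their namesakes. These values do not settle whether the replicate numbers pair samples. Same-numbered samples also shared a header number. The main test used no pairing, and the replicate number was a block in an alternative only. Alternatives were DESeq2 1.42.0, its size factors, other filters, the replicate or header number as a block, the samples of header number 57 and the other samples each alone, limma 3.58.1 on log2(value + 1), each sample left out, and a robust dispersion, the last chosen after seeing the data.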

Additional observations from a re-analysis of the deposited data

How the results depend on the processing

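None of the 7 genes was called under any alternative, 5 of them being tested with at least 10 counts required in every sample. Signs changed for Otx2 with the replicate block (0.11), the header number as a block (0.12), the samples outside header number 57 (0.32) and limma (0.36), for Ttr (0.30) and Folr1 (0.04) with limma, for Kl (-0.76) and Msx1 (-0.69) within header number 57, for Lmx1a without control replicate 3 (0.03) and for Msx1 without Dot1l-cKO replicate 5 (-0.15). The cause was not tested. With each sample left out in turn, log2 fold changes ran from -3.80 to -1.69 for Ttr, from -0.74 to 0.03 for Lmx1a and from -0.15 to 1.23 for Msx1.

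All genes called numbered 1212, of which 966 were increased and 246 decreased. DESeq2 called 2001, with 658 decreased. The replicate block gave 1604, with 495 decreased, and it moved the calls of Bmp2 (adjusted p = 0.0573) and Tyrp1 (0.0762) past the threshold. The header block gave 597 decreased. Header number 57 alone, with 2 samples a group, gave 1 increased and 0 decreased, and the other samples gave 745, of which 590 were increased and 155 decreased. Leaving out a sample gave 750 to 1357 calls, 624 to 1076 increased and 126 to 343 decreased. Of the other choroid plexus genes, 0 were called within header number 57 or within the other samples and 0 to 2 with a sample left out. Of the other hem genes, 0 were called with DESeq2 size factors, without a filter, with either block, within either of these sample sets and with limma, and 0 to 3 with a sample left out. Depth limited the values of Kl, which had 9 to 36 counts.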
